A study of Arabidopsis thaliana with 42 samples.

Results

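The levels of 9 genes of the abscisic acid and drought response were followed across seedlings of natural Arabidopsis thaliana accessions: NCED3, ABI1, ABI2, HAB1, ABF3, RD29B, RAB18, RD22 and P5CS1. They were taken by locus identifier because of their known roles in this pathway, and are 9 of the 20669 genes that were tested. The choice was made with earlier results of these data known. The study sequenced polyadenylated RNA from whole seedlings of 19 accessions from which the MAGIC mapping population, built by crossing many parents, was derived. Each accession (Bur-0, Can-0, Col-0, Ct-1, Edi-0, Hi-0, Kn-0, Ler-0, Mt-0, No-0, Oy-0, Po-0, Rsch-4, Sf-2, Tsu-0, Wil-2, Ws-0, Wu-0 and Zu-0) had 2 libraries labelled biological replicates, 38 in all, and Col-0 had 4 further libraries labelled technical replicates. The labels name no transgene, mutation or treatment for any of them: after 5 days of cold at 4 C, seeds were put on soil, and all seedlings were about 11 days old, at 20 C and 16 hours of light to 8 hours of dark. No drought, salt or hormone treatment was part of the design, so the levels below are those of plants under one growth regime, and the labels do not say how many plants went into a library or at which hour they were harvested.

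Abscisic acid is a hormone that accumulates when water is short. Its receptors, the PYR/PYL proteins, bind and inhibit protein phosphatases of group A of the PP2C family, which frees SnRK2 kinases to activate bZIP transcription factors of the ABF group. These factors bind the ABA-responsive element, a DNA motif around the letters ACGTG, and raise the transcription of protective proteins such as dehydrins. The phosphatase genes are themselves induced by the hormone, which closes a negative feedback loop.

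The 9 genes cover parts of this response, without a receptor or a SnRK2 kinase among them. NCED3 (AT3G14440, chr3:4831286-4834015, minus strand) encodes the dioxygenase that makes the committed cleavage in stress-induced synthesis of the hormone. ABI1 (AT4G26080, chr4:13219915-13222376, minus strand), ABI2 (AT5G57050, chr5:23087122-23089631, plus strand) and HAB1 (AT1G72770, chr1:27389948-27393327, plus strand) encode PP2C phosphatases that hold the signal off. ABF3 (AT4G34000, chr4:16295334-16298285, plus strand) encodes a bZIP factor. RD29B (AT5G52300, chr5:21237021-21239531, plus strand), RAB18 (AT5G66400, chr5:26518277-26519447, minus strand), a dehydrin gene, and RD22 (AT5G25610, chr5:8914122-8916856, minus strand), which encodes a BURP-domain protein, are classic target genes. P5CS1 (AT2G39800, chr2:16598072-16603319, minus strand) encodes the enzyme of the rate-limiting step of stress-induced proline synthesis. Coordinates and annotation are those of RefSeq on TAIR10.1.

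The upstream sequence of RD29B is shown because it carries the densest set of motif letters among the 9 genes. It is the 250 bases before the annotated start, chr5:21236771-21237020 on the plus strand of TAIR10.1, printed 5′ to 3′, with capitals for the ABRE core (ACGTG or its complement CACGT) and for the DRE core (CCGAC), the letters bound by DREB and CBF factors.

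RD29B: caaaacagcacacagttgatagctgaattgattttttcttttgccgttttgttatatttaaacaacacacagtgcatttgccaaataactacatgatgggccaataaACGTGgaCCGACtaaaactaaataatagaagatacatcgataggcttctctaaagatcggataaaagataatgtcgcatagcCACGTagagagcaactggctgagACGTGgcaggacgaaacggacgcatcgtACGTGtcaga

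The ABRE core stood in this window 4 times in RD29B, its first base 143, 61, 38 and 10 bases before the start. RAB18 held it 3 times, 163, 111 and 18 bases before the start, in a window that runs into the neighbouring gene AT5G66410. HAB1, ABF3 and RD22 held it once each. The matches outside RD29B are printed as 15 bases on the strand of the gene, to let the flanks of the core be compared, again with the core in capitals.

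RAB18, chr5:26519601-26519615, minus strand: gatgtACGTGtgtat
RAB18, chr5:26519549-26519563, minus strand: gcattACGTGtcctg
RAB18, chr5:26519456-26519470, minus strand: atgaaCACGTacttg
HAB1, chr1:27389924-27389938, plus strand: ctaatACGTGtcctt
ABF3, chr4:16295218-16295232, plus strand: tggacCACGTtgccc
RD22, chr5:8916875-8916889, minus strand: gaaggCACGTagtgg

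The cores of RAB18 at 111 bases and of HAB1 share the run ACGTGtcct, and the last core of RD29B is followed by the same ACGTGtc. Of the 9 genes, 5 held at least 1 core on either strand and 2 held at least 2. Of 37883 windows of the same length before annotated genes, 20.8% held at least 1 and 7.38% at least 2. The evening element AAAATATCT, a motif of clock-controlled genes, stood in the windows of ABI2 and RAB18 on either strand and in 2.11% of all windows. The DRE core stood in that of RD29B alone among the 9 and in 4533 of the 37883 windows. No window of the 9 held the G-box CACGTG, which 5.4% of all windows held. These are matches of letters in the reference sequence of Col-0, and the other accessions may differ there.

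Values are RPKM as deposited, a read number corrected for exon length and for library size, so levels can be compared between genes per length. Levels of an accession are means ± SD of its 2 libraries (n = 2), and differences are on the log2(RPKM + 1) scale, which understates the change of low genes. Depth was not given. An estimate from the steps between low values came to 1140000 reads in Ws-0 replicate 2, 3330000 at the median and 4540000 in Ct-1 replicate 2. It fitted loosely: only 18.3% (Col-0 replicate 1) to 21.7% (No-0 replicate 2) of genes with few reads came near whole read numbers. By that rough estimate RD22 rested on 829 to 2575 reads per library, P5CS1 on 176 to 826, and RD29B on 0 to 19, so RD29B was close to the limit of detection throughout. A level is a mean over whole seedlings, in which fewer cells of a type and less RNA per cell cannot be told apart. Leaf markers (RBCS1A and LHCB1.3) summed to 17700 to 28100 RPKM over the 38 biological libraries, and each of these resembled the other of its accession most, in 38 of 38 cases.

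RD22 was the most abundant of the 9 and RD29B the scarcest. Over the 38 libraries RD22 lay between 159 and 444 RPKM with a median of 279, and P5CS1 between 24.3 and 85.3 with a median of 50. ABI1, RAB18 and ABF3 followed with medians of 18.2, 14.5 and 8.75 RPKM. HAB1, ABI2, NCED3 and RD29B had medians of 5.19, 3.83, 1.75 and 0.699 RPKM. The pathway was therefore read out at very different levels, with the proline enzyme and RD22 high and the target gene RD29B near the limit of detection.

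The accessions differed in 7 of the 9 genes by the moderated F test of limma over 19 accession means (Benjamini-Hochberg adjusted p under 0.05). The same test called 55.3% of all genes tested, so a majority of members past it is not a result about these genes. P5CS1 (adjusted p = 1.252e-07), RD22 (7.675e-06) and HAB1 (4.483e-05) passed by the widest margin in limma, followed by NCED3 (0.0002265), ABF3 (0.0008871), RD29B (0.01519) and ABI2 (0.01976). RAB18 (0.1715) and ABI1 (0.2515) did not pass in limma. The span between the highest and the lowest accession mean had a median of 1.52 on the log2 scale over the 9 genes and of 1.00 over all genes tested. Nothing says that the libraries of an accession came from separate sowings, so these p-values measure the spread between libraries that the labels call biological replicates.

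**Figure D1:**
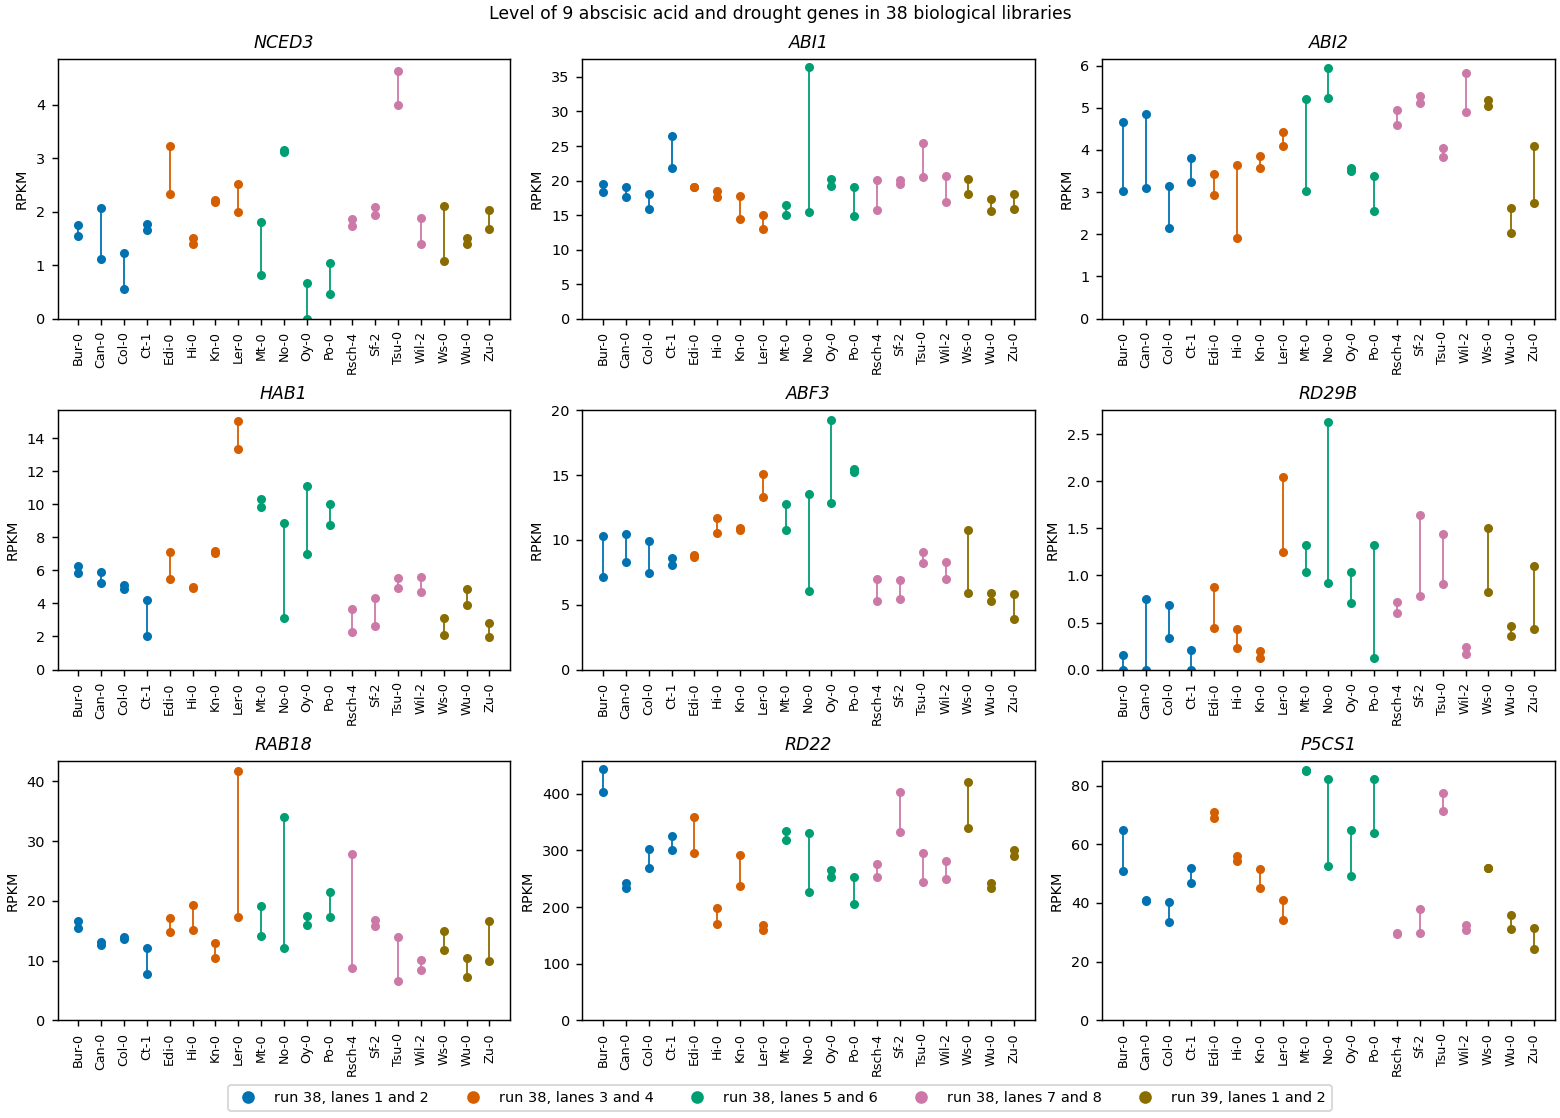
Level of each of the 9 genes in RPKM (y axis, from 0) in the 19 accessions (x axis). Each point is 1 library, lines join the 2 libraries of an accession, and colours give the pair of sequencing lanes. The pairs of points of P5CS1 lie close together in most accessions but not in No-0 (82.1 and 52.5 RPKM), and single libraries of No-0, Ler-0 and Rsch-4 stand far from their partners in ABI1 or RAB18.

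NCED3, at the head of the chain, was highest in Tsu-0 and lowest in Oy-0. The Tsu-0 libraries held 4.62 and 3.99 RPKM and those of Oy-0 were listed at 0 and held 0.657. Both Tsu-0 libraries lay above all other libraries, and No-0 came next with 3.15 and 3.11 RPKM. Set against the mean of the other 18 accessions in limma, NCED3 was higher by 1.04 ± 0.19 (SE) in Tsu-0 (adjusted p = 0.0005933) and by 0.66 ± 0.19 in No-0 (adjusted p = 0.03371). It was lower in Oy-0, by -1.12 ± 0.19 (adjusted p = 0.0002735), and in Po-0, by -0.67 ± 0.19 (adjusted p = 0.0286). Such contrasts called 6.37% of all genes higher in Tsu-0, 3.65% higher in No-0, 4.06% lower in Oy-0 and 3.35% lower in Po-0. Of the 18 neighbouring pairs of accessions in the order of NCED3 means, 2 had libraries that did not overlap, Tsu-0 above No-0 and Kn-0 above Sf-2, so most of the order lies within the spread. A library gave about 0 to 35 reads for NCED3, with a median of 15.5, and the low end of the order rests on a handful of them. In limma the calls were lost without either library of No-0 (adjusted p = 0.165 and 0.206), without Oy-0 replicate 1 (-0.75, adjusted p = 0.104) and without Po-0 replicate 1 (-0.43, adjusted p = 0.572).

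The 3 phosphatase genes behaved differently from each other. HAB1 spanned 2.17 on the log2 scale, ABI2 0.99 and ABI1 0.74. HAB1 held 15.1 and 13.3 RPKM in Ler-0, above every other library, 9.87 and 10.3 in Mt-0 and 10.02 and 8.726 in Po-0. At the other end stood Zu-0 with 2.81 and 1.98, Ws-0 with 3.09 and 2.11 and Rsch-4 with 3.69 and 2.25. Accessions at the top and at the bottom were thus several-fold apart, 5.93-fold between the means of Ler-0 and Zu-0, with libraries that did not overlap.

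In limma HAB1 was higher than in the other 18 accessions by 1.33 ± 0.22 (SE) in Ler-0 (adjusted p = 0.0001372), by 0.85 in Mt-0 (0.009814) and by 0.74 in Po-0 (0.03795). It was lower by -0.96 in Zu-0 (adjusted p = 0.00308), -0.88 in Ws-0 (0.007779), -0.74 in Rsch-4 (0.02732) and -0.72 in Ct-1 (0.04098), whose libraries held 2.02 and 4.19 RPKM. Over all genes, 7.52% were called higher in Ler-0, 7.01% in Mt-0 and 4.3% in Po-0, and 8.34% were called lower in Zu-0, 9.75% in Ws-0, 5.39% in Rsch-4 and 5.48% in Ct-1. The Ct-1 call was lost with another scaling of the libraries (adjusted p = 0.0612) and without the lower Ct-1 library (-0.33, 0.715) or Ler-0 replicate 1 (0.0507). Without 1 library, limma also lost the calls of Mt-0 (adjusted p = 0.126 and 0.135 without replicate 1 and 2), Po-0 (0.428 and 0.136), Rsch-4 (0.0719 and -0.48 with 0.342), Ws-0 (0.279 without replicate 2) and Zu-0 (0.153 without replicate 2).

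ABI2 ranged from 5.23 and 5.95 RPKM in No-0 to 2.03 and 2.63 in Wu-0. The lowest single library was Hi-0 replicate 1 with 1.91, so the groups at the bottom overlapped. Only Wu-0 differed from the other 18 accessions in limma, by -0.56 ± 0.17 (SE, adjusted p = 0.03587), where 6.76% of all genes were called lower, and this call was lost without either Wu-0 library (adjusted p = 0.433 and 0.106).

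ABI1 was the steadiest of the 9. Its libraries lay between 13.0 and 20.7 RPKM in 16 of 19 accessions. Both libraries of Ct-1 (26.4 and 21.8) and 1 each of Tsu-0 (25.5, beside 20.6) and No-0 were above that range. The No-0 libraries held 15.4 and 36.4 RPKM, the widest gap within any accession, and they decide the test: the adjusted p of limma fell from 0.2515 to 0.0209 without both of them, to 0.000812 without replicate 1 and to 0.0215 without replicate 2. The exons of ABI1 were not found to share 25-base words with another gene, but the gene overlaps AT4G26070 on the other strand, and the use of strand in counting was not given.

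ABF3, the gene of a bZIP factor, was highest in Oy-0, Po-0 and Ler-0 and lowest in Zu-0. Its libraries held 19.2 and 12.8 RPKM in Oy-0, 15.5 and 15.3 in Po-0 and 15.1 and 13.3 in Ler-0, against 3.87 and 5.83 in Zu-0. The top 3 accessions and Zu-0 did not overlap. Against the other 18 accessions in limma it was higher by 0.79 ± 0.20 (SE) in Oy-0 (adjusted p = 0.01072), 0.76 in Po-0 (0.01784) and 0.64 in Ler-0 (0.0298), and lower by -0.83 in Zu-0 (0.004139) and -0.64 in Wu-0 (0.03512). In Oy-0 5.76% of all genes were called higher. None of these 5 calls held in limma without each library of its accession: Oy-0 came to 0.51 (adjusted p = 0.381) without replicate 1, Zu-0 to -0.59 (0.216) without replicate 1, and Po-0 (0.243 and 0.128), Ler-0 (0.319 and 0.154) and Wu-0 (0.342 and 0.157) were lost without either. ABF3 overlaps AT4G34020 on the other strand.

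Among the target genes RD22 was the best determined. The Bur-0 libraries held 404 and 444 RPKM, those of Ws-0 339 and 421 and those of Sf-2 333 and 403, while Ler-0 held 159 and 168 and Hi-0 198 and 170. Both Ler-0 libraries lay below all others. In limma RD22 was higher than in the other 18 accessions by 0.65 ± 0.11 (SE) in Bur-0 (adjusted p = 0.0001591), 0.48 in Ws-0 (0.004343) and 0.44 in Sf-2 (0.01149), and lower by -0.79 in Ler-0 (2.066e-05) and -0.62 in Hi-0 (0.000689). Contrasts of this kind called 7.79% of all genes higher in Bur-0, 6.09% in Ws-0 and 5.16% in Sf-2, and 6.79% lower in Ler-0 and 3.69% in Hi-0. Ler-0 was thus low in RD22 and high in HAB1 and ABF3. Without replicate 2 of each, limma lost the RD22 calls of Hi-0 (-0.51, adjusted p = 0.0867), Sf-2 (0.30, 0.4) and Ws-0 (0.33, 0.303).

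RAB18 overlaps AT5G66410 on the other strand, and the use of strand in counting was not given. Of its variance 43.3% lay between libraries of the same accession. Its extremes were both single libraries: 41.7 RPKM in Ler-0 replicate 2, beside 17.3 in replicate 1, and 6.58 in Tsu-0 replicate 1, beside 13.9. In No-0 it held 34.0 and 12.2 and in Rsch-4 8.73 and 27.9. No contrast of an accession against the other 18 passed for RAB18 in limma, the nearest being Ler-0 with 0.91 ± 0.32 (SE, adjusted p = 0.05488). The F test passed without No-0 replicate 2 (adjusted p = 0.0463 in limma) or without Rsch-4 replicate 1 (0.0389), and came to the threshold without Rsch-4 replicate 2.

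RD29B was listed at 0 in 3 libraries (Bur-0 and Can-0 replicate 1, Ct-1 replicate 2) and reached 2.63 RPKM in No-0 replicate 1 and 2.04 in Ler-0 replicate 2. None of the 18 neighbouring pairs in its order of accession means was apart, but the ends of the order were: both libraries of Ler-0 (1.25 and 2.04) and of Mt-0 (1.32 and 1.04) lay above those of Kn-0 (0.117 and 0.199) and Wil-2 (0.239 and 0.167). The F test passed, but no accession differed from the other 18 in limma, where Ler-0 (0.70 ± 0.24, SE, adjusted p = 0.053) and No-0 (0.72 ± 0.24, adjusted p = 0.07571) came nearest. At these depths 3 reads of RD29B were worth 0.304 to 1.21 RPKM, which covers counting error only, so most of its values are at or near that floor. Its neighbour RD29A, which lies 1185 bases downstream on chromosome 5, was more abundant and wider in range: from 64.3 ± 24.7 RPKM in Tsu-0 to 5.24 ± 0.499 in Kn-0 (adjusted p = 1.13e-06, limma F test). RD29A is known to respond also to cold through the DRE, and the CBF factors, summed over CBF1, CBF2 and CBF3, ran from 0.776 to 23.2 RPKM over the libraries with the maximum in Tsu-0 replicate 1. The part of the cold factors in these levels was not tested.

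P5CS1 had the largest number of calls. Its libraries held 85.3 and 85.0 RPKM in Mt-0, 77.6 and 71.5 in Tsu-0, 82.1 and 63.7 in Po-0 and 70.9 and 68.8 in Edi-0. The lowest accessions were Zu-0 (24.3 and 31.4), Rsch-4 (29.3 and 29.6) and Wil-2 (30.8 and 32.6). The 2 libraries of Mt-0 lay above all others, and the means of Mt-0 and Zu-0 were 3.06-fold apart. From high to low the means ran Mt-0, Tsu-0, Po-0, Edi-0, No-0, Bur-0, Oy-0, Hi-0, Ws-0, Ct-1, Kn-0, Can-0, Ler-0, Col-0, Sf-2, Wu-0, Wil-2, Rsch-4 and Zu-0. Of the 18 neighbours in that order 4 did not overlap, as for RD22, beside 3 for ABF3, 2 for HAB1 and ABI2 and 1 for ABI1 and RAB18.

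In limma P5CS1 was higher than in the other 18 accessions in 5 accessions, by 0.87 ± 0.13 (SE) in Mt-0 (adjusted p = 3.153e-05), 0.67 in Tsu-0 (0.0009686), 0.62 in Po-0 (0.002647), 0.57 in Edi-0 (0.00387) and 0.48 in No-0 (0.02069). It was lower in 5 others, by -0.81 in Zu-0 (adjusted p = 7.095e-05), -0.71 in Rsch-4 (0.0004683), -0.61 in Wil-2 (0.002111), -0.53 in Wu-0 (0.007955) and -0.52 in Sf-2 (0.008664). Over all genes, 6.31% were called higher in Edi-0, and 6.75% were called lower in Wil-2 and 5.84% in Sf-2; the shares of the other accessions are given above. In No-0 the value rests on replicate 1 (82.1 against 52.5 RPKM), and the call was lost without it (0.16, adjusted p = 0.618). Also lost in limma were Po-0 (adjusted p = 0.279), Sf-2 (-0.35, 0.287), Tsu-0 (0.0512) and Wil-2 (0.0869) without replicate 1, and Edi-0 (0.109 and 0.0674) and Wu-0 (0.0575 and 0.194) without either library. The annotated exons of P5CS1 overlap those of AT2G39795 on the other strand. Of the 25-base words of P5CS1, 4.22% are shared with other genes, the most with AT2G39795, and its paralog P5CS2 also shares words with it. A small part of the reads of P5CS1 could thus belong to either gene.

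Altogether the 9 genes gave 32 calls over 171 contrasts of a gene in an accession, 16 higher and 16 lower, that is 18.7% of the contrasts beside 11.5% over all genes. Po-0 held 4 of them (HAB1, ABF3 and P5CS1 higher, NCED3 lower), and Ler-0, Wu-0 and Zu-0 held 3 each. In Wu-0 and Zu-0 all were lower: ABI2, ABF3 and P5CS1 in Wu-0 and HAB1, ABF3 and P5CS1 in Zu-0. Col-0, Can-0 and Kn-0 had none. Leaving out 1 library at a time, with the lone library of its accession assumed to vary like the others, ended 25 of the 32 calls in at least 1 case. The 7 that held under every alternative run were P5CS1 in Mt-0, Rsch-4 and Zu-0, RD22 in Bur-0 and Ler-0, HAB1 in Ler-0 and NCED3 in Tsu-0. These contrasts were not run within pairs of sequencing lanes, so the 7 are not shown to hold apart from the lanes.

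Part of this variation moved with the sequencing lanes. The labels put the accessions on 5 pairs of lanes, with 3 or 4 accessions to a pair, so lanes and accessions are partly confounded. Every accession but Zu-0 had its libraries on different lanes, whereas those of Zu-0 shared a single lane of run 39. Between lane pairs lay 57.8% of the variance of ABF3, 52.4% of that of HAB1 and 41.8% of that of P5CS1, beside 19.9% at the median of the 20453 genes with values in all 38 libraries. The libraries of Oy-0, Po-0, Mt-0 and No-0, on lanes 5 and 6 of run 38, had medians of 13.2 RPKM for ABF3, 9.38 for HAB1 and 73.5 for P5CS1. Those of Ws-0, Wu-0 and Zu-0, on run 39, had 5.85, 2.95 and 33.7 RPKM. Accessions and lane pairs cannot be told apart in these differences.

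Tested only between accessions of the same lane pair, 42.6% of all genes passed the F test of limma, and so did 5 of the 9: P5CS1, RD22, NCED3, HAB1 (adjusted p = 0.008021) and ABI2 (0.04936). ABF3 (0.1672) and RD29B (0.06031) no longer passed. Within accessions lay 44.7% of the variance of ABI1, with RAB18 close behind, against 28.8% at the median of those 20453 genes and 7.1% for P5CS1.

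**Figure D2:**
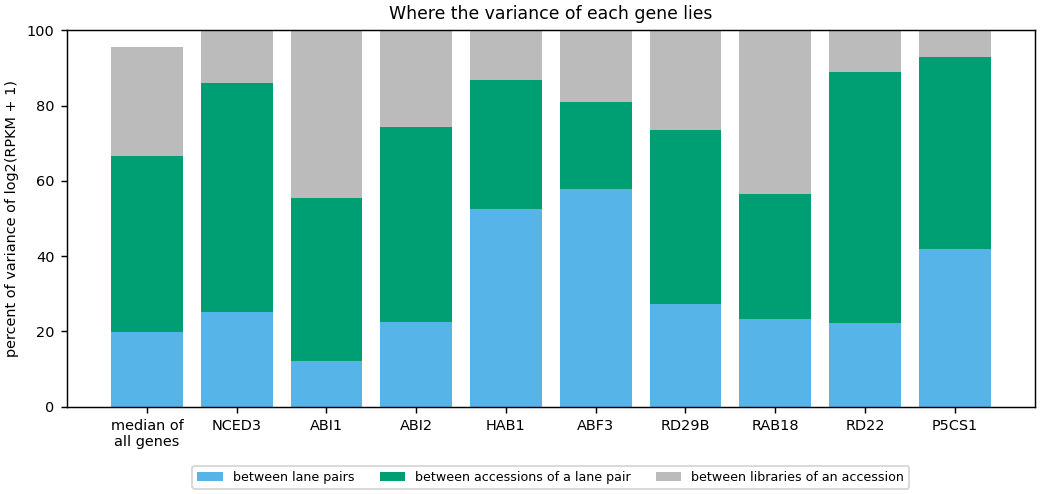
Percent of the variance of log2(RPKM + 1) over the 38 libraries (y axis) that lay between lane pairs, between accessions of a lane pair and between the 2 libraries of an accession, for each gene and as medians over the 20453 genes tested with values in all 38 libraries (first bar, where 3 separate medians do not add up to 100). HAB1 and ABF3 have the largest share between lane pairs, and ABI1 and RAB18 the largest between libraries.

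The 9 genes did not move as a block among accessions. Of the 36 pairs, 1 passed a two-sided permutation test over the 19 accession means after Benjamini-Hochberg adjustment: HAB1 with ABF3 (Pearson r = 0.84, permutation adjusted p = 0.00072; Spearman rho = 0.84, permutation adjusted p = 0.00072). Without Ler-0 and Zu-0, the accessions farthest from the median of HAB1, r was 0.78. Centred within lane pairs r was 0.56 and the pair no longer passed (permutation adjusted p = 0.16). The calls overlapped in part: both genes were called higher in Ler-0 and Po-0 and lower in Zu-0, while Mt-0, Ct-1, Rsch-4 and Ws-0 were called for HAB1 alone and Oy-0 and Wu-0 for ABF3 alone.

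The target genes RD29B and RAB18 came to r = 0.54 (rho = 0.5, permutation adjusted p = 0.166 and 0.217), to 0.29 without Ler-0 and No-0 and to 0.63 within lane pairs. ABF3 with P5CS1 came to r = 0.61 (rho = 0.66, permutation adjusted p = 0.102 and 0.0553), and to 0.17 within lane pairs. NCED3 and P5CS1 had r = 0.08 (permutation adjusted p = 0.81) and 0.46 within lane pairs. For pairs that missed the threshold, 19 accessions leave a wide range of correlations possible.

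HAB1 and ABF3 also followed CCA1, a transcription factor of the circadian clock whose transcript peaks in the morning. Over the 19 accession means CCA1 had r = 0.87 with HAB1 (rho = 0.85) and 0.85 with ABF3 (rho = 0.86), each with a permutation adjusted p of 9e-05 over the 9 genes, a comparison added after clock genes had been seen to vary. Without Ws-0 and Zu-0, the accessions farthest from the median of CCA1, r was 0.81 and 0.86. Within lane pairs r was 0.73 (permutation adjusted p = 0.00405) and 0.56 (0.0414). The permutations within lane pairs shuffled centred values over all 19 accessions and did not allow for the centring. Their p-values therefore tend to be too small, and 0.0414 does not settle whether ABF3 passes. CCA1 itself ranged from 37.2 ± 0.692 RPKM in Mt-0 to 1.58 ± 0.641 in Zu-0, and 70.2% of its variance lay between lane pairs. The share of all genes tested that follow CCA1 this closely was not computed. The relation is therefore not shown to be particular to HAB1 and ABF3. The other 7 genes did not pass; ABI1 had r = -0.35 (permutation adjusted p = 0.211) and -0.65 within lane pairs (0.0128). The hour of harvest was not given, and its part in the levels of HAB1 and ABF3 was not tested.

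No-0 was the 1 accession whose libraries were at least 2-fold apart in CCA1, with 23.3 RPKM in replicate 1 and 2.92 in replicate 2. From replicate 1 to replicate 2, HAB1 held 8.89 and 3.12 RPKM, ABF3 13.6 and 6.05, RAB18 34.0 and 12.2, RD29B 2.63 and 0.916, P5CS1 82.1 and 52.5 and RD22 331 and 226. ABI1 went the other way with 15.4 and 36.4. NCED3 (3.15 and 3.11) and ABI2 (5.23 and 5.95) were close in both. In the other accessions, where CCA1 differed less, the library with more CCA1 was not regularly the one with more HAB1 or ABF3: counting No-0, this was so in 10 of 19 and 11 of 19 accessions.

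**Figure D3:**
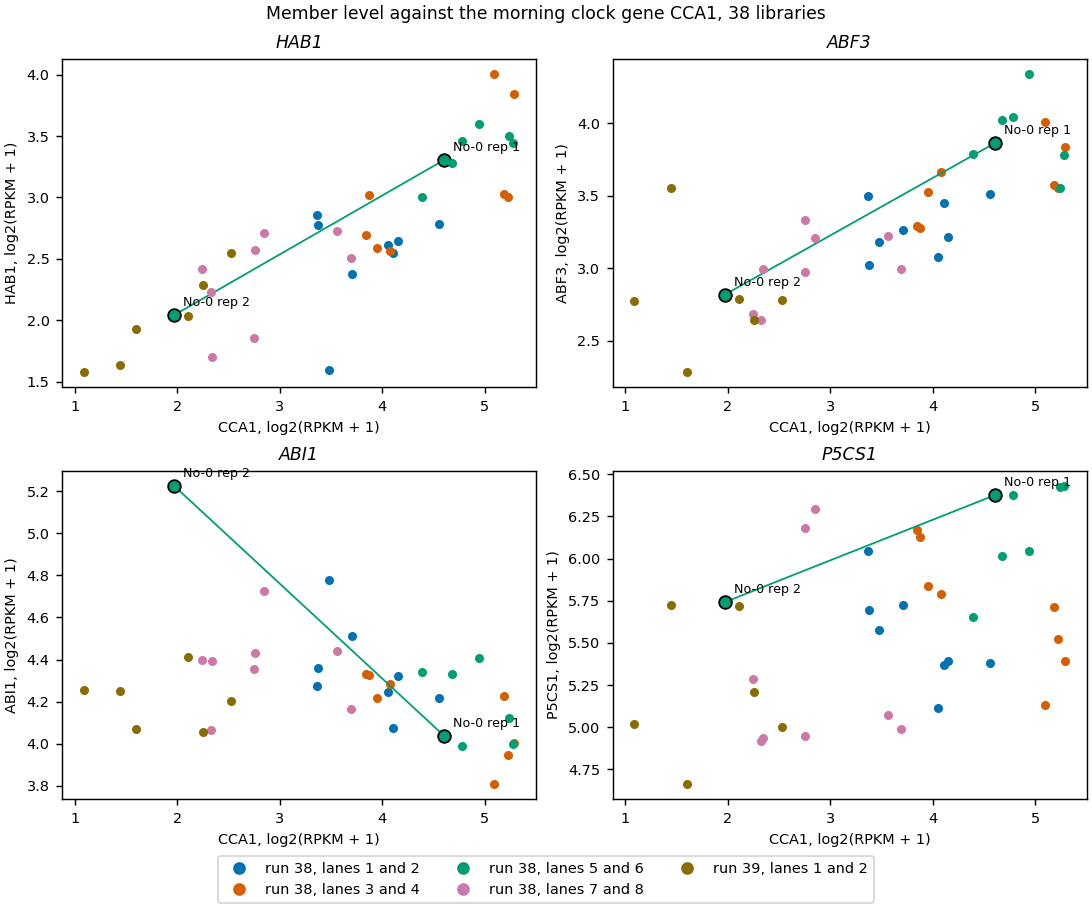
Level of HAB1, ABF3, ABI1 and P5CS1 (y axes) against CCA1 (x axes), both as log2(RPKM + 1), in the 38 biological libraries, coloured by lane pair, with the 2 No-0 libraries outlined and joined. HAB1 and ABF3 rise along CCA1 (r = 0.87 and 0.85 over accession means), ABI1 is highest in No-0 replicate 2, and P5CS1 scatters.

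The genes most like each of the 9 over the 19 accession means, among 17914 others, were as follows. For HAB1 they were AT5G14880 (r = 0.92), AT3G54500 (0.917) and ATH13 (0.915), and for ABF3 SPP2 (0.898), AT4G26860 and ERD9 (both 0.891). ABI1 was most like ERF9 (0.9), AT2G15830 (0.885) and UVR8 (0.817). RD29B was most like AT5G56790 (0.825), AT1G73325 (0.816) and AT5G08630 (0.787), and RAB18 most like CYP81D4 (0.8), AT1G11940 (0.783) and AT2G25320 (0.75).

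P5CS1 was most like ATHB7 (0.775), AT1G70340 (0.765) and AGP13 (0.758). Of all 27 genes named by this measure, ATHB7, a homeodomain gene induced by abscisic acid, was the single one on the pathway list. NCED3 was most like AT1G51380 (0.775), AT5G62370 (0.76) and ILA (0.754), ABI2 like AT1G68260 (0.753), AT3G10185 (0.748) and CM2 (0.741), and RD22 like CTEXP (0.786), PMT5 (0.779) and KCS6 (0.777). Each r is the highest of many, and these points share libraries and lanes.

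The rest of the pathway varied as well. Of 77 further genes of hormone synthesis, breakdown, perception, signalling, response and proline metabolism, 60 passed the filter on low values and 46 of them the F test of limma, 76.7% beside 55.3% of all genes. Their spans had a median of 1.44. By role, 7 of 9 receptor genes, 1 of 3 further PP2C genes, 2 of 3 SnRK2 kinase genes, 8 of 10 transcription factor genes, 15 of 17 target genes, 6 of 8 genes of proline metabolism, 4 of 6 of hormone synthesis and 3 of 4 of hormone breakdown passed. All 11 clock genes passed.

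The widest span among them was that of COR15B, a cold- and drought-induced chloroplast protein gene, 4.33 on the log2 scale, with 198 ± 4.22 RPKM in Ws-0 and 8.92 ± 1.07 in Ler-0 (adjusted p = 1.641e-08, limma F test). Its exons share 29.15% of their 25-base words with other genes, the most with the overlapping AT2G42520, so the split of reads between these genes is uncertain. CYP707A3, which encodes a hydroxylase that degrades the hormone, reached 15.2 ± 5.77 RPKM in Edi-0 and 0.0798 ± 0.113 in Oy-0 (adjusted p = 0.0001067), the accession lowest in NCED3. Other targets with wide spans were KIN2 (3.46, highest in Ws-0), RD29A (3.34, Tsu-0), KIN1 (2.94, Tsu-0), COR15A (2.78, Tsu-0), RD20 (2.74, Po-0) and GOLS1 (2.55, Po-0). KIN1 and KIN2 share 9.25% and 10.62% of their words with other genes, each the most with the other.

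BGLU18, a glucosidase gene that releases the hormone from its stored glucose ester, held 211 ± 9.14 RPKM in Mt-0 and 33.2 ± 2.47 in Wil-2 (adjusted p = 1.241e-08, limma F test). The homeodomain gene ATHB12 ranged from 21.9 ± 7.79 RPKM in Mt-0 to 2.09 ± 0.64 in Ws-0 and the NAC gene RD26 from 17.4 ± 3.34 in Edi-0 to 2.27 ± 0.0882 in Ws-0. PRODH1, which encodes the first enzyme of proline breakdown, ranged from 15.9 ± 1.79 RPKM in Edi-0 to 1.9 ± 0.982 in Ws-0. Edi-0 was thus high in both P5CS1, for synthesis, and PRODH1, for breakdown. Col-0 held nearly as much PRODH1 (15.6 ± 0.851 RPKM), with 36.97 ± 4.646 RPKM of P5CS1. No contrast of an accession is given for PRODH1. Among the receptors PYL6 had the widest span (2.38, 7.08 ± 2.07 RPKM in Kn-0 and 0.536 ± 0.293 in Po-0), among the kinases SNRK2.2 (1.44, 76.8 ± 0.994 in Wil-2 and 27.8 ± 1.67 in Ler-0) and among the other phosphatases PP2CA (1.19, 33.7 ± 4.58 in Edi-0 and 14.4 ± 3.57 in Bur-0).

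Markers of other organs and cell types were read in the same libraries. Seed markers summed to 0 to 24.1 RPKM with a median of 0.319 and the maximum in Po-0 replicate 2, where EM6, a gene of late seed development on the pathway list, was also highest as an accession mean (4.55 ± 1.54 RPKM). Root markers summed to 81.8 to 451 RPKM, guard cell markers to 26.2 to 62.7 with the maximum in Ler-0 replicate 1, and flower markers to 0.268 to 28.9. The root sum was nearly all PYK10 (81.1 to 448 RPKM), while CASP1, IRT1, EXPA7 and COBL9 reached at most 3.27. EXPA7 was at 0 in 34 libraries, COBL9 in 26 and IRT1 in 22. Among the flower markers SEP3 reached 28.6 RPKM and AP3, PI and AG at most 2.27. No list was at 0 in all libraries. Their part in the levels of the 9 genes was not tested.

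The 9 genes also differed between 2 sets of Col-0 libraries, for 8 of them by more than the span of the accession means and for RD22 by less (1.21 against 1.37 on the log2 scale). In the 4 libraries labelled technical replicates, sequenced on lane 7 of run 35, every one of the 9 genes stood above all 38 biological libraries, Col-0 and the other accessions alike. Of 17943 genes shared between the files and at 1 RPKM or more in either Col-0 set, 6.53% stood so and 12.5% stood below all 38. The technical files came from another set of features, were sequenced on another run and lane, and may come from other plants, which the labels do not say, so the comparison is a description with no test.

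RAB18 held 534, 559, 567 and 570 RPKM in the technical libraries and 14.04 and 13.63 in the biological libraries of Col-0, a ratio of means of 40.3. RD29B held 53.8, 55.7, 57.5 and 58.1 RPKM against 0.69 and 0.332, a ratio of 110 that rests on about 6 and 3 reads in the biological libraries. P5CS1 held 584, 595, 597 and 609 RPKM against 33.7 and 40.3, a ratio of 16.1. These 2 targets and the proline enzyme were thus far above the highest library of any accession, which held 41.7 RPKM for RAB18, 2.63 for RD29B and 85.3 for P5CS1. On the log2(RPKM + 1) scale the differences were 5.24 for RD29B, 5.23 for RAB18 and 3.98 for P5CS1, which rank 12, 13 and 35 among the 17943 shared genes.

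NCED3 held 12.3 to 15.1 RPKM in the technical libraries against 0.547 and 1.23, a ratio of 15.1 and rank 85. Among the phosphatases, HAB1 held 30.19 to 35.03 RPKM against 5.12 and 4.86 (ratio 6.5), ABI2 14.3 to 15.7 against 3.14 and 2.16 (5.71) and ABI1 50.2 to 60.3 against 17.98 and 15.84 (3.24). ABF3 held 40.6 to 45.3 RPKM against 7.45 and 9.93 (4.99). RD22 differed least, with 648 to 676 RPKM against 269 and 302 (2.32). On the log2(RPKM + 1) scale 7 of the 9 were at least 4-fold higher, beside 1.19% of the shared genes, and the median difference was 2.48 over the 9 and -0.14 over all shared genes.

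**Figure D4:**
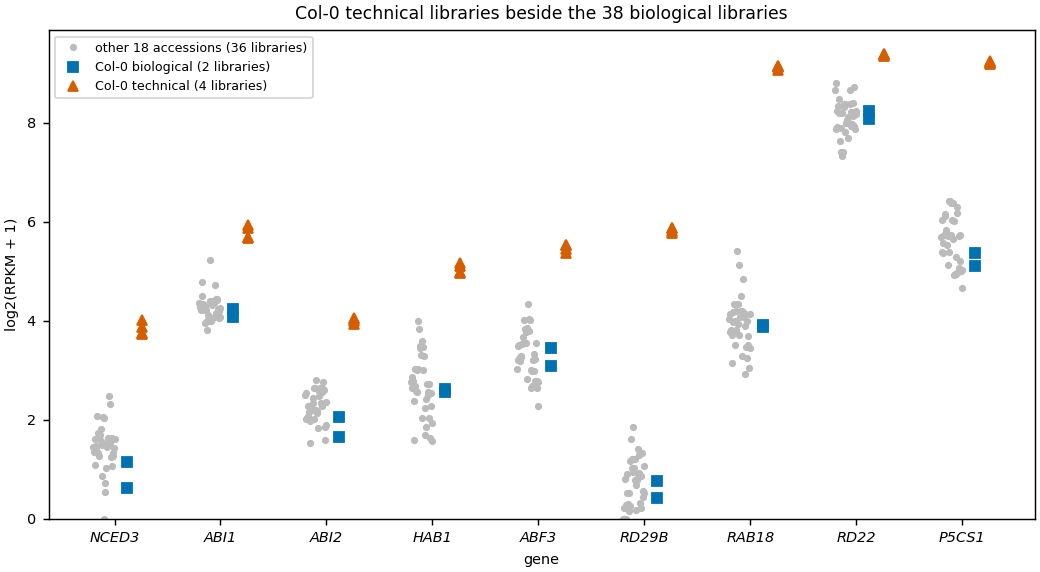
Level of the 9 genes as log2(RPKM + 1) (y axis) in the 36 libraries of the other 18 accessions (grey), the 2 biological libraries of Col-0 (blue) and the 4 technical libraries of Col-0 (orange). For each of the 9 genes the 4 technical libraries lie together above all 38 biological ones, farthest for RD29B, RAB18 and P5CS1.

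The pathway list split by role in the same comparison. Of its 60 shared genes, 13 were at least 4-fold higher in the technical libraries, beside 1.19% of all shared genes, and 3 at least 4-fold lower, beside 1.27%. The 13 were the PP2C genes HAI2, HAI1 and PP2CA, the homeodomain genes ATHB7 and ATHB12, and the targets LEA7, GOLS2, KIN2, RD20, TSPO, RD29A, COR15A and LTI30. The 3 lower genes were all receptors: PYL4 (21.2 ± 3.68 RPKM, n = 4, against 119 ± 12.4, n = 2), PYL5 (2.38 ± 0.509 against 14.1 ± 2.99) and PYL6 (0.68 ± 0.203 against 5.95 ± 0.338). Of these only PYL4 stood below all 38 biological libraries, whereas PYL5 and PYL6 overlapped them. Of the 60 genes 22 stood above all 38 and 2 below, beside 6.53% and 12.5% of all shared genes.

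HAI2 held 28.8 ± 3.59 RPKM in the technical libraries and 0.239 ± 0.154 in the biological ones, and LEA7 87.2 ± 10.4 against 0.476 ± 0.673, where 1 biological library was listed at 0. ATHB7 held 163 ± 12.7 RPKM against 8.09 ± 0.898. RD29A, the neighbour of RD29B, held 98.7 ± 2.28 against 11.6 ± 0.255. The SnRK2 kinase genes differed by 0.14 to 0.70 on the log2 scale. The genes of proline metabolism other than P5CS1 went both ways. P5CS2, the paralog of P5CS1, held 58.6 ± 0.849 RPKM against 28.0 ± 1.11, with all 4 technical libraries above all 38, and the transporter gene PROT2 6.74 ± 0.771 against 2.15 ± 1.1. PRODH1, of proline breakdown, was lower with 7.51 ± 0.484 RPKM against 15.6 ± 0.851.

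**Figure D5:**
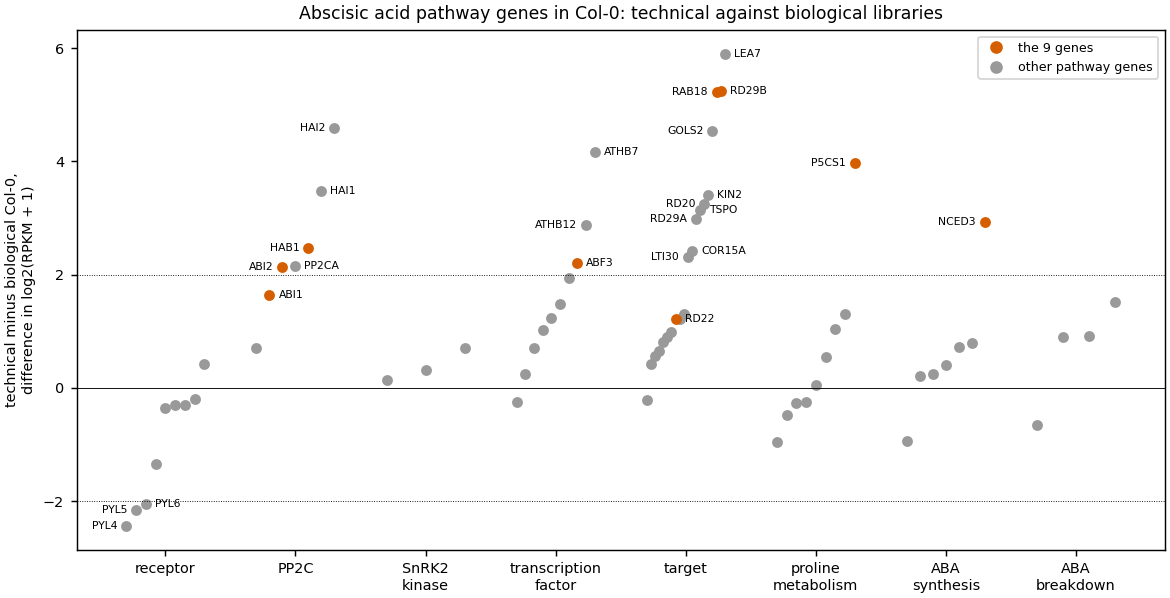
Difference between the technical and the biological libraries of Col-0 in log2(RPKM + 1) (y axis) for the 9 genes (orange) and 60 further pathway genes (grey) by role (x axis). Dotted lines mark 4-fold in either direction. NCED3, HAB1, ABI2, ABF3, RD29B, RAB18 and P5CS1 lie above the upper line with 13 of the further genes. The kinases lie at 0.14 to 0.70, and 3 receptors lie below the lower line.

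Other genes also differed between the sets of Col-0 libraries. CCA1 held 42.7 ± 3.2 RPKM in the technical libraries (n = 4) and 15.9 ± 0.426 in the biological ones (n = 2), and ELF4 40.1 ± 6.4 against 5.44 ± 0.952. The 11 clock genes had a median difference of 0.88 on the log2 scale, with GI at -0.01, PRR7 at -0.41 and PRR5 at -0.61. Of the leaf markers LHCB1.3 held 12170 ± 594 RPKM against 3613 ± 466, above all 38 libraries, and RBCS1A 16830 ± 747 against 20170 ± 2956. Seed markers summed to 0 to 0.25 RPKM in the technical libraries, against 0.118 and 0.68. Guard cell markers summed to 31.2 to 35.7 RPKM against 37.7 and 39.2, and the 3 CBF genes to 5.97 to 9.39 against 4.1 and 1.54. Root markers summed to 99.6 to 104 RPKM against 141 and 194, of which PYK10 alone held 99.27 to 103.6 against 140.2 and 194.2. The part of the clock genes, the run and the feature set in the levels of the 9 genes was not tested, and plants, library preparation and run cannot be told apart here.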

How the data were processed

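Polyadenylated RNA of whole seedlings was measured in 42 libraries. Per the file headers the authors deposited RPKM, and the submitters' processing notes name the builds TAIR9 and TAIR10. The aligner, the counter, the use of strand and the handling of multiply mapped reads are not given in the sources used here. An RPKM depends on these, on the exon model and, outside Col-0, on the alignment of reads across natural variants. The files of biological libraries list 65238 features and hold, besides RPKM, the code -1 (other; 6133 to 7304 features per library in the deposited files), read as no value; the 9 genes never had it. Those of the technical libraries list 28691 features.

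Genes that reached 1 RPKM in 2 or more of the 38 libraries were kept (20669; all 9 genes passed). Values as log2(RPKM + 1) were fitted in limma 3.58.1 (R 4.3.3) with a mean per accession and a trend, and p-values were adjusted by Benjamini-Hochberg over all genes within each test, threshold 0.05. An F test compared the 19 means, and contrasts set each accession against the mean of the other 18. Correlations used 100000 permutations, and 20000 under alternatives (Python 3.11.15, SciPy 1.17.1). The fits were also run on simulated data with independent normal noise and shifts in Bur-0 alone. Those data held no lane effects, so they do not bear on the confounding with lanes. Depth was estimated from ratios of low values and exon lengths of TAIR10.1 and is rough. The 9 genes, the gene lists and the tests were chosen with earlier results of these data known. Named genes are the 9, the 12 pathway genes with the widest span past the F test, the widest in each role, and the 3 most alike to each of the 9; genes past 4-fold in the Col-0 comparison, marker lists and single examples there were named after their values were seen. Alternatives were a pseudocount of 0.1, scaling by median ratios, no filter, no trend, the replicate number as a block and leaving out libraries or accessions. Tests within lane pairs were run for the F test and the correlations, not for the contrasts of an accession.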

Additional observations from a re-analysis of the deposited data

Results flagged for a closer look

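The 4 technical libraries of Col-0 lie outside the main comparison of 19 accessions, and each of the 9 genes was higher there than in all 38 biological libraries. The mean RPKM of the 4 libraries was 13.4 for NCED3, 54.82 for ABI1, 15.1 for ABI2, 32.42 for HAB1, 43.41 for ABF3, 56.27 for RD29B, 557.5 for RAB18, 663.3 for RD22 and 596.2 for P5CS1. The difference was not tested, because the sets differ in run, lane and feature set together. No single technical library stood apart from the other 3 for any of the 9 genes.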

How the results depend on the processing

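Of 2844 values recomputed under alternatives, 2774 kept direction and side of the threshold or, for counts, stayed within 1.5 times. Among those, 2199 came from leaving out 1 library or accession, often not of the accession called, where little change was possible. Of the 2844, 44 were no longer past the threshold, 11 came past it, 3 counts moved by over 1.5 times and 12 changed sign. All 12 were correlations past the threshold neither as reported nor under the alternative. Within lane pairs these were CCA1 with RAB18 (r from 0.37 to -0.34) and with P5CS1 (0.43 to -0.18), and P5CS1 with RAB18 (0.23 to -0.29) and with HAB1 (0.47 to -0.03). NCED3 with P5CS1 (0.08) came to -0.01 with a pseudocount of 0.1 and to -0.11 without Tsu-0. Without 1 accession, RD29B with RD22 (-0.09) came to 0.08 (Bur-0) and 0.16 (Ler-0), RAB18 with RD22 (-0.25) to 0.05 (Ler-0), NCED3 with RAB18 (-0.12) to 0.07 (Tsu-0), ABI2 with P5CS1 (-0.07) to 0.03 (Wil-2) and ABI2 with RAB18 (0.16) to -0.02 (Wu-0). The number of the 9 genes past the F test was 7 with a pseudocount of 0.1, scaling, no filter, no trend and the replicate block, 8 without No-0, 5 within lane pairs, and 7 to 9 without 1 library; genes past it ranged from 10769 to 11888 without 1 library and were 8801 within lane pairs. Accession calls of the 9 genes, 32 as reported, ranged from 29 to 44 without 1 library and were 41 without No-0. With a pseudocount of 0.1, NCED3 in No-0 (adjusted p = 0.186 in limma) and Po-0 (0.131) and HAB1 in Po-0 (0.0552) were no longer called. HAB1 in Ct-1 was not called without the filter (0.053). The 1 pair past the threshold became 0 when centred within lane pairs, and ranged from 1 to 3 without 1 accession: without Ler-0, HAB1 (permutation adjusted p = 0.0354) and ABF3 (0.0171) with P5CS1 also passed, and without Tsu-0, ABF3 with P5CS1 and RD29B with RAB18 (both 0.0366). The cause of these changes was not tested.

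The replicate numbers did not pair the libraries: over 171 pairs of accessions the deviations of same-numbered libraries correlated at -0.14 to 0.13. With the replicate number as a block 11234 genes, 7 of the 9, 46 pathway genes and 32 accession calls passed. Scaling moved library medians by -0.05 to 0.10 on the log2 scale. Depth limits RD29B, NCED3 and ABI2 most, at about 4.5, 15.5 and 27.5 reads per library at the median.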
